A study of Mus musculus with 14 samples.

Results

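The peaks of phosphorylated SMAD1/5/9 (pSMAD1/5/9) and of SMAD4 in muscle stem cells (MuSCs) stimulated with BMP6 for 1 h were compared with each other. Both lists were used whole, 7339 pSMAD1/5/9 peaks and 12860 SMAD4 peaks, each made from 2 biological replicates, so that 4 of the 14 samples of the series entered the comparison. A peak was called matched when it shared at least 1 bp with a peak of the other list. The assay was CUT&Tag, in which an antibody directs a transposase to cut and tag the DNA beside the protein it binds. The MuSCs came from fore- and hindlimb, dorsal and breast muscle of 9-week-old female C57BL/6N mice with the transgene Tg(Pax7-EGFP)Tajb, and were sorted for GFP and cultured. Because the transgene carries Pax7 sequence, reads at the Pax7 locus may come from it as well as from the endogenous gene.

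Before stimulation all cells were kept for 6 h without serum and with 200 ng/mL BMPR1A-Fc, a soluble receptor that binds BMPs. They then received BMP6 at 100 ng/mL or the vehicle, and 100000 fixed and frozen cells went into each library. Vehicle cells, which shared the serum-free step and BMPR1A-Fc, gave 949 pSMAD1/5/9 peaks and 8577 SMAD4 peaks, and H3K27ac, a mark of active promoters and enhancers, gave 78050 peaks after BMP6. Reads were subsampled by the authors to equal depth per antibody, and the lists do not give the number of reads in a peak. Signals are compared only as ranks within a list, where rank 1 is the strongest peak and a rank percentile near 0 is strong. Ranks in the 2 replicate columns of a list are given as a pair, in the order of the columns, which carry no replicate number. The promoters of all 10 muscle stem cell markers had an H3K27ac peak, against 55.1% of 21757 protein-coding genes, and those of the 5 fibro-adipogenic progenitor markers had none. Promoters of 1 of 4 endothelial markers (Tek), 1 of 4 leukocyte markers (Cd68) and 3 of 4 myofibre markers also had one.

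BMPs bind receptor kinases that phosphorylate SMAD1, SMAD5 and SMAD9. The phosphorylated proteins join SMAD4, which is shared with the TGF-β branch of the pathway, and the complex enters the nucleus and binds DNA. In MuSCs, BMP signalling induces Id genes, whose products hold back the myogenic bHLH factors, and is known for keeping the cells from differentiating.

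The following GRCm39 sequences, read on the plus strand, are shown as examples of SMAD motif letters under matched peaks and under peaks of 1 list only. The first 4 hold a bipartite BMP element in capitals, defined here as GGCGNC and GTCT with 5 bases of any kind between them, on either strand. It lay 69 bp from the pSMAD1/5/9 summit at Skil, 4 bp from that at Id2 and 11 bp from the SMAD4 summit at Id1, all in matched peaks. At Snai1 it lay 87 bp from the summit of a pSMAD1/5/9 peak that had no SMAD4 partner.
Skil (chr3:31148685-31148745): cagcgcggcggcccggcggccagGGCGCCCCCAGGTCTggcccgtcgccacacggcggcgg
Id1 (chr2:152577103-152577163): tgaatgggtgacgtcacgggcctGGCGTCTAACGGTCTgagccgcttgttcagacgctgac
Id2 (chr12:25148830-25148890): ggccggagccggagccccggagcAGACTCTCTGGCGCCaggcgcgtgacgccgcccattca
Snai1 (chr2:167401469-167401529): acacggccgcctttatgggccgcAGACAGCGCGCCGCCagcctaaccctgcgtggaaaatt

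The bases around the pSMAD1/5/9 summit of Smad6, which encodes an inhibitory SMAD, hold the SMAD palindrome GTCTAGAC, here in capitals with a GGAGCC match on the other strand. The palindrome lay 26 bp from the pSMAD1/5/9 summit and 54 bp from that of SMAD4. The last 3 windows lie on the summits of SMAD4 peaks without a pSMAD1/5/9 partner, with the SMAD-binding letters CAGAC, or GTCTG on the other strand, in capitals. They are named for the gene with the nearest start site. The summit lay 6134 bp from that of Plk5, 251139 bp from that of Plk2 and -98900 bp (upstream) from that of Adamts5.
Smad6 (chr9:63929307-63929427): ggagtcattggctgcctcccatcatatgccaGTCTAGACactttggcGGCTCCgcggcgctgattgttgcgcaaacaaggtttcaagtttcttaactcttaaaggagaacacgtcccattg
Plk5 (chr10:80198017-80198137): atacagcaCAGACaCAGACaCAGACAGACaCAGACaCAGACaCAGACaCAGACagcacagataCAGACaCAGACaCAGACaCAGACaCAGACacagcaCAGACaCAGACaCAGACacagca
Plk2 (chr13:110782094-110782214): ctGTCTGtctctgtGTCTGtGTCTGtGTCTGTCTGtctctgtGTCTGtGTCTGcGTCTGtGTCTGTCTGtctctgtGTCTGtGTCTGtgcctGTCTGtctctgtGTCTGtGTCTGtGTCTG
Adamts5 (chr16:85797556-85797676): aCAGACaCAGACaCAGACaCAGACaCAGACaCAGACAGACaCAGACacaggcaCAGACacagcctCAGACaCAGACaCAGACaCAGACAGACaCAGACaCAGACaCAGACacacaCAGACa

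Most pSMAD1/5/9 peaks had a SMAD4 partner, and most SMAD4 peaks had no pSMAD1/5/9 partner. Of the pSMAD1/5/9 peaks, 5375 of 7339 (73.2%, Wilson 95% interval 72.2 to 74.2) were matched, and of the SMAD4 peaks 5486 of 12860 (42.7%, 41.8 to 43.5). A single partner served 5034 of the matched pSMAD1/5/9 peaks, 331 had 2 and 10 had 3. The lists covered 4.67 Mb and 7.43 Mb and shared 3.04 Mb, which is 65.1% of the first and 41.0% of the second. Unmatched peaks were mostly far from the other list. The median gap to its nearest peak was 18668.5 bp for pSMAD1/5/9 and 35033.5 bp for SMAD4, and 8.50% and 6.01% of them had one within 500 bp. These intervals cover counting error over peaks only, because peaks are not replicates of a condition. Where both peaks had to share at least 50% of their length, 57.1% and 32.6% were matched, and with the SMAD4 list cut to the 7339 strongest peaks, 62.0% and 61.04%.

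The share that was matched fell with signal in both lists. In the strongest decile of the pSMAD1/5/9 list 98.9% (725 of 733) had a SMAD4 partner, in the fifth decile 77.9%, and in the weakest 37.9% (278 of 734). In the SMAD4 list the strongest decile stood at 92.4% (1188 of 1286), the fifth at 41.0% and the weakest at 9.56% (123 of 1286). Every decile of either list was below the one before it. The median rank percentile was 39.5 for matched and 74.6 for unmatched pSMAD1/5/9 peaks, and 26.3 against 65.8 for SMAD4. The irreproducible discovery rate (IDR), with which the peaks were called, was at most 0.01 in 60.8% of matched and 20.6% of unmatched pSMAD1/5/9 peaks, and in 74.6% and 30.2% of SMAD4 peaks. Matched peaks were also wider, with medians of 624 against 468 bp for pSMAD1/5/9 and 660 against 429 bp for SMAD4. A wider peak meets the 1 bp rule for a match more easily, so width and class are not independent.

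**Figure D1:**
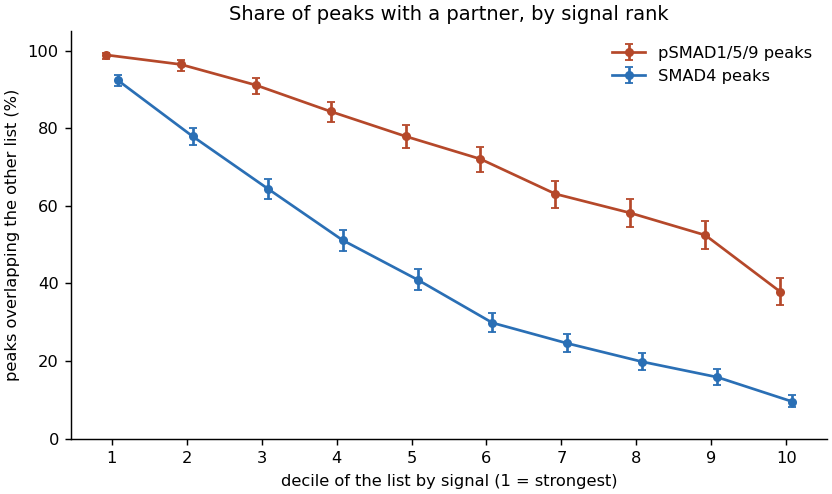
Share of peaks with a partner in the other list (percent, with Wilson 95% intervals) in each decile of the pSMAD1/5/9 and SMAD4 lists, from the strongest to the weakest signal. The share falls from 98.9% to 37.9% for pSMAD1/5/9 and from 92.4% to 9.56% for SMAD4.

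The strongest matched pair lay at Skil, which encodes SnoN, a corepressor that acts on SMADs. Its promoter peak ranked 1 in the pSMAD1/5/9 list (columns 1 and 8) and 1 in the SMAD4 list (columns 1 and 1). A peak nearest to Cirbp, which encodes a cold-inducible RNA-binding protein, ranked 2 (columns 6 and 1) and 4 (columns 16 and 3). The peak nearest to Gadd45g, a stress-response gene, lay 178644 bp from its start site and ranked 4 (columns 3 and 3) and 9 (columns 13 and 10). All of these held their place near the top in both columns of both lists. The promoter peak of Smad7, the other inhibitory SMAD, ranked 15 (columns 17 and 20) and 7 (columns 14 and 7). An intronic peak nearest to Lmna, which encodes the nuclear lamins A and C, ranked 7 (columns 16 and 6) and 23 (columns 36 and 16). Crip1 (ranks 6 and 11), the taurine transporter gene Slc6a6 (5 and 14) and the predicted gene Gm5148 (8 and 18) complete the 8 pairs with the lowest summed rank percentile. The pSMAD1/5/9 summits named for Slc6a6 and Gm5148 lay at -63982 and -151201 bp from the start sites, where negative distances are upstream. All 8 also overlapped a SMAD4 peak of vehicle cells, and all except Smad7 overlapped a pSMAD1/5/9 peak of vehicle cells. Beside this, 90.4% of matched pSMAD1/5/9 peaks in the strongest quartile overlapped a vehicle SMAD4 peak. Of all matched pSMAD1/5/9 peaks, 14.5% overlapped a vehicle pSMAD1/5/9 peak.

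Across the 5179 pairs in which each peak was the other's best partner, the ranks of the lists went together with a Spearman's rho of 0.641. The rho between replicate columns of the same peaks was 0.722 for pSMAD1/5/9 and 0.823 for SMAD4, and 1 column of each antibody against 1 of the other gave 0.560 to 0.595 over the 4 combinations. These are descriptions across peaks, which share libraries and are not independent, and the calling kept peaks whose replicate ranks went together. Of the 715 pairs with pSMAD1/5/9 in its strongest decile, 561 (78.5%) had SMAD4 in its strongest decile too. In the other direction, these 561 were 47.7% of the 1177 pairs with SMAD4 in its strongest decile. The rank percentiles of a pair lay within 10 points of each other in 38.9%, within 25 in 69.1% and within 50 in 92.2%.

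**Figure D2:**
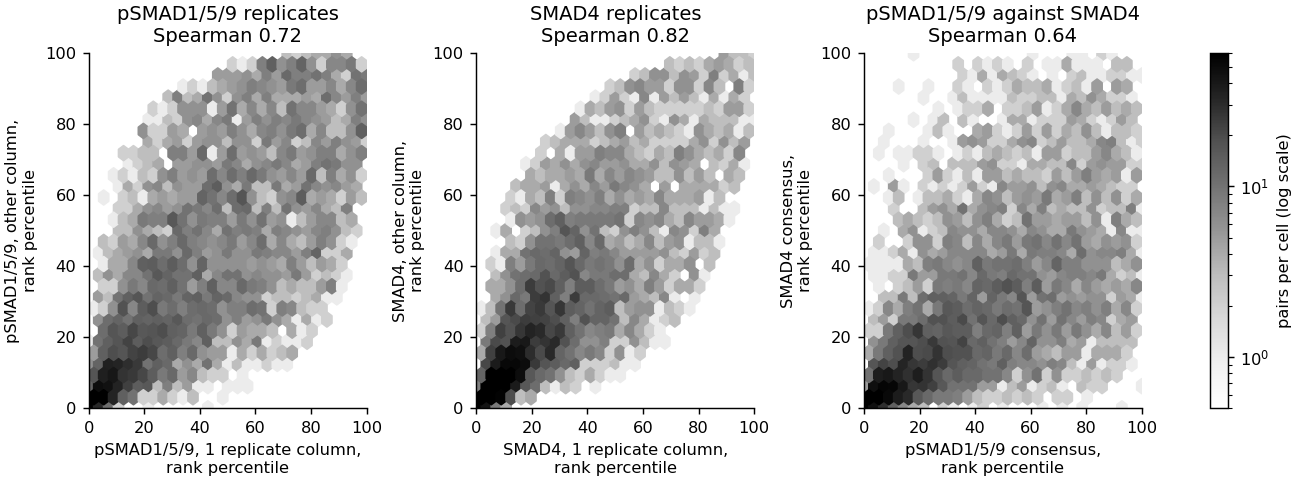
Rank percentiles of the 5179 best pairs, with shading for the number of pairs per hexagon on a log scale: the replicate columns of pSMAD1/5/9 (left) and of SMAD4 (middle) against each other, and the consensus pSMAD1/5/9 peak (x) against its SMAD4 partner (y, right). Points gather at the strong end, near 0, in all panels, and spread most on the right, with a Spearman's rho of 0.722, 0.823 and 0.641 from left to right.

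Some pairs differed widely in rank, and the 4 with the largest difference in each direction are described here. At Stag2, which encodes a cohesin subunit, the pSMAD1/5/9 peak ranked 444 (columns 351 and 774) and the SMAD4 peak 9422 (columns 8496 and 10434). At Sirt4, a mitochondrial sirtuin gene, the ranks were 699 (columns 703 and 760) and 10235 (columns 11007 and 8121). The remaining pairs of this kind were Scarf2 (811 and 11626) and Yipf6 (1325, columns 721 and 3752, and 12709, columns 12393 and 12809). In the other direction, an intronic peak nearest to Zmiz1, a transcriptional coregulator gene, ranked 7248 (columns 7026 and 7036) for pSMAD1/5/9 and 920 (columns 446 and 3187) for SMAD4. A peak 97703 bp from the start site of Rxra, which encodes a retinoid receptor, ranked 6812 (columns 6291 and 6640) and 1344 (columns 1485 and 1312). Katnal2 (6966 and 1534) and the predicted gene Gm58920 (6713 and 49) were of the same kind. The pairs were chosen for these differences, and the summits of 6 of the 8 lay more than 200 bp apart, from 256 bp at Sirt4 to 588 bp at Scarf2, against 136 bp at Zmiz1 and 143 bp at Yipf6.

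The summits of paired peaks lay close together. The consensus summit, on which these distances and the motif windows rest, sat at the midpoint of the replicate summits in 41.8% of pSMAD1/5/9 and 48.9% of SMAD4 peaks, and how it was set in the others is not given in the sources used here. The median distance was 76 bp (quartiles 31.5 and 150), and 36.1% of summits lay within 50 bp, 61.2% within 100 bp and 83.6% within 200 bp. For 915 pairs in which the consensus summit of both lists sat at the midpoint of the replicate summits, a subset chosen after the offsets were seen, the median distance was 52 bp. Over these pairs the replicate summits of 1 antibody lay 58 bp apart for pSMAD1/5/9 and 54 bp for SMAD4 (medians), and a single column of each antibody gave 58 to 67 bp. Taken column by column, summits of different antibodies thus lay about as far apart as replicates of 1 antibody, and no test was made of the small difference. The pSMAD1/5/9 peak was the wider of the pair in 44.3%, with medians of 630 and 669 bp. For pairs at start sites, the pSMAD1/5/9 summit lay upstream of the SMAD4 summit in 50.7% (48.3 to 53.1), with a median offset of -2 bp.

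**Figure D3:**
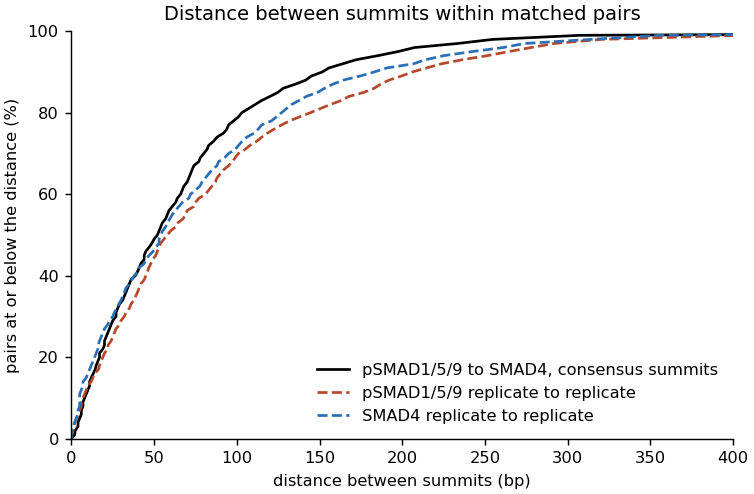
Cumulative share of the 915 pairs at replicate midpoints (percent) by the distance between summits in bp, from pSMAD1/5/9 to SMAD4 consensus summits (solid line) and between replicate columns of 1 antibody (dashed lines). The solid line reaches its median at 52 bp and the dashed lines at 58 bp for pSMAD1/5/9 and 54 bp for SMAD4.

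Matched peaks more often overlapped peaks of the parallel cultures given vehicle. Of matched SMAD4 peaks 68.8% overlapped a SMAD4 peak of vehicle cells, against 28.2% of unmatched ones, with an odds ratio of 5.60 and a p too small to be computed. Overlap of pSMAD1/5/9 peaks with a pSMAD1/5/9 peak of vehicle cells was rarer, in 14.5% of matched and 3.00% of unmatched ones (adjusted exact p = 3.6e-52). Across antibodies the class already rests on overlap with the other antibody's peaks, so the shares are given as a description: 69.2% of matched and 24.5% of unmatched pSMAD1/5/9 peaks overlapped a vehicle SMAD4 peak, and 14.4% and 1.37% of SMAD4 peaks a vehicle pSMAD1/5/9 peak. These and the following are two-sided Fisher's exact tests with Benjamini-Hochberg adjustment over 34 comparisons, of which 18 passed, and they compare classes of peaks in these lists, not replicates. Signal rank and width moved with the classes, and overlap of 1 bp, used here and for H3K27ac below, is met more easily by wider peaks. Within quartiles of the pSMAD1/5/9 list, overlap with vehicle SMAD4 was 90.4% against 64.2% in the strongest and 45.1% against 14.7% in the weakest, and in the SMAD4 list 88.1% against 75.1% and 28.9% against 11.8%.

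Nearly every matched peak lay in acetylated chromatin. H3K27ac peaks after BMP6 overlapped 99.9% of matched and 93.6% of unmatched pSMAD1/5/9 peaks (adjusted exact p = 1.5e-62). For SMAD4 peaks the shares were 99.9% and 92.6% (adjusted exact p = 1.7e-122). In both lists the difference was largest in the weakest signal quartile. There it was 99.4% against 88.3% for pSMAD1/5/9 and 99.8% against 85.2% for SMAD4. In the strongest quartile it was 100% against 98.5% and 100% against 97.6%. On autosomes, 99.9% of matched and 94.6% of unmatched SMAD4 peaks overlapped H3K27ac. The H3K27ac peak under a matched pSMAD1/5/9 peak had a median rank percentile of 5.03 and a median width of 4200 bp, against 10.6 and 3080 bp under an unmatched one. For SMAD4 these were 5.05 and 4200 bp against 11.04 and 3150 bp.

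Unmatched peaks were more often on chromosome X, which held 12.5% of unmatched and 2.29% of matched pSMAD1/5/9 peaks (adjusted exact p = 9e-60), and 4.85% and 2.17% of SMAD4 peaks (adjusted exact p = 1.5e-15). Unmatched X peaks were narrow, with median widths of 234 and 221 bp, and 60.8% and 52.8% of them overlapped H3K27ac. Of the H3K27ac list 7.16% lay on X. On autosomes alone, 75.3% of pSMAD1/5/9 peaks were matched, H3K27ac covered 98.3% of the unmatched ones, and vehicle SMAD4 covered 69.5% of matched and 27.1% of unmatched ones.

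Start sites held a like share of matched and unmatched pSMAD1/5/9 peaks, 34.1% (32.8 to 35.4) and 33.1% (31.1 to 35.3), a difference that did not pass the test (adjusted exact p = 0.59). In the weakest quartile of the list it did, at 35.6% and 29.4% (adjusted exact p = 0.0108), and in the other quartiles and on autosomes the difference had the opposite sign. For SMAD4, 34.5% of matched and 28.8% of unmatched peaks were at start sites (adjusted exact p = 2.2e-11), while introns held 28.3% and 31.6% (adjusted exact p = 0.00015) and intergenic DNA 31.8% and 35.1% (adjusted exact p = 0.0003). Within signal quartiles the intron difference passed in none of the 4 (adjusted exact p = 0.0841 to 0.795), and the intergenic difference was lost in the strongest, the second and the weakest (adjusted exact p = 0.655, 0.168 and 0.0716). In the strongest quartile of the SMAD4 list the start-site difference was 4.16 points and did not pass (adjusted exact p = 0.118).

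**Figure D4:**
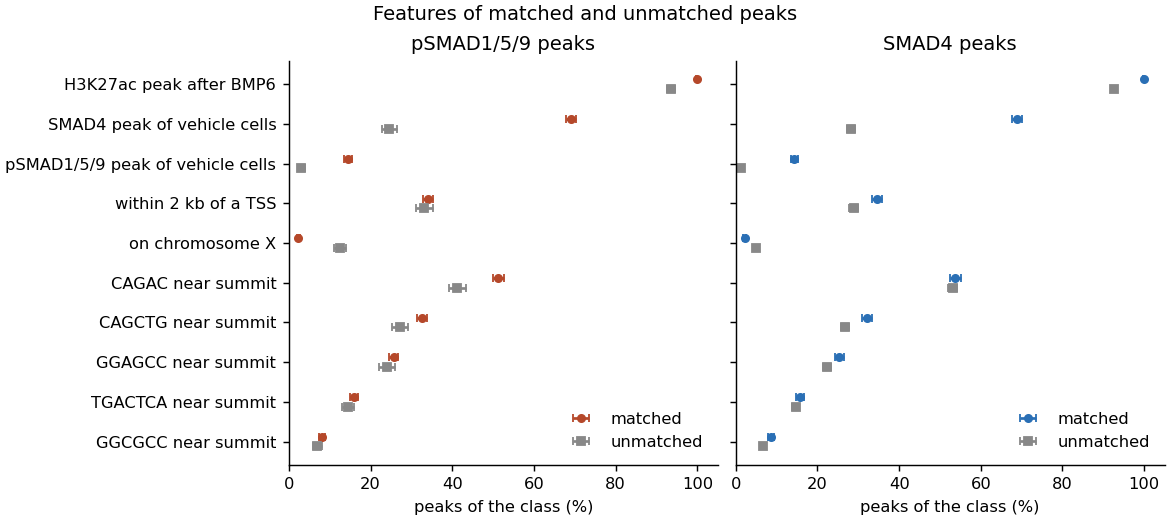
Share of matched (circles) and unmatched (squares) peaks with each feature (percent, with Wilson 95% intervals), for pSMAD1/5/9 on the left and SMAD4 on the right. Overlap with SMAD4 peaks of vehicle cells stands at 69.2% and 24.5% for pSMAD1/5/9 and 68.8% and 28.2% for SMAD4.

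CAGAC and the SMAD palindrome were more frequent in matched than in unmatched pSMAD1/5/9 peaks, and CAGCTG was more frequent in matched peaks of both lists. Matched peaks were also stronger, and motif shares were not compared within signal quartiles, so motif and signal differences are not told apart. Motifs were searched on both strands in 200 bp centred on each summit, and CAGAC, for which SMAD4 and the activated SMADs have affinity, was found in 51.3% of matched and 41.2% of unmatched pSMAD1/5/9 peaks (adjusted exact p = 8.6e-14). Windows 1 kb away held it in 40.1% and 38.8%, and windows on all start sites in 36.8%. In SMAD4 peaks it was in 53.8% and 53.1% (adjusted exact p = 0.59). The palindrome GTCTAGAC, which contains CAGAC on neither strand, was in 37 of 5375 matched (0.688%) and 1 of 1964 unmatched (0.0509%) pSMAD1/5/9 peaks (adjusted exact p = 0.00031), and in 0.0926% of start-site windows. Among peaks of middling GC content this difference did not pass (adjusted exact p = 0.245). In SMAD4 peaks the palindrome was in 1.18% and 1.32% (adjusted exact p = 0.611).

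CAGCTG, an E-box that myogenic bHLH factors such as MYOD bind, was in 32.5% of matched and 27.2% of unmatched pSMAD1/5/9 peaks (adjusted exact p = 4.2e-05) and in 32.1% and 26.8% of SMAD4 peaks (adjusted exact p = 3.2e-10), against 11.98% of start-site windows. In peaks of middling GC content the pSMAD1/5/9 difference was 4.37 points and did not pass (adjusted exact p = 0.105), and the SMAD4 difference passed (adjusted exact p = 0.0116). The GC-rich SMAD motif GGAGCC was in 25.6% and 24.0% of pSMAD1/5/9 peaks (adjusted exact p = 0.218) and 25.4% and 22.3% of SMAD4 peaks (adjusted exact p = 0.00012). GGCGCC, which the bipartite element can contain, was in 8.07% and 6.87% (adjusted exact p = 0.152) and in 8.60% and 6.74% (adjusted exact p = 0.0002). Neither SMAD4 difference held among peaks of middling GC content, where that of GGAGCC turned its sign. The bipartite element itself was in 0.298% and 0.356% of pSMAD1/5/9 peaks (adjusted exact p = 0.684) and 0.383% and 0.203% of SMAD4 peaks (adjusted exact p = 0.109). TGACTCA, the AP-1 site, was in 15.9% and 14.4% (adjusted exact p = 0.169) and in 15.6% and 14.7% (adjusted exact p = 0.19), against 2.91% of start-site windows. CACCTG, another E-box, was in 11.3% and 11.7% of pSMAD1/5/9 peaks (adjusted exact p = 0.678) and 11.1% and 12.4% of SMAD4 peaks (adjusted exact p = 0.0448). The last call was lost in 100 bp windows, without start-site peaks and on autosomes (adjusted exact p = 0.15, 0.239 and 0.0665). The RBPJ site, searched as ATGGGAA or GTGGGAA, was in 8.37% and 8.66% (adjusted exact p = 0.726) and 8.64% and 8.62% (adjusted exact p = 0.975). Windows on all start sites held GGAGCC in 27.6%, GGCGCC in 11.98%, the bipartite element in 0.208%, CACCTG in 13.8% and the RBPJ site in 6.54%. Windows 1 kb from matched and unmatched pSMAD1/5/9 summits held GGAGCC in 14.7% and 13.0%, and GGCGCC in 2.39% and 2.16%. For SMAD4 these were 14.5% and 12.8%, and 2.47% and 1.89%. The bipartite element was there in 0.0744% and 0.0% for pSMAD1/5/9, and in 0.0547% and 0.0610% for SMAD4. For pSMAD1/5/9, CACCTG was there in 15.8% and 15.2%, and the RBPJ site in 8.17% and 7.94%. A match is a description of letters and not a binding site.

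The strongest pSMAD1/5/9 peaks without SMAD4 were few. The strongest decile held 8, of which 7 are described here. The peak nearest to Mid1, which encodes a ubiquitin ligase, lay near the end of X and ranked 57 (columns 23 and 423). The promoter of Usp5, a deubiquitinase gene, ranked 109 (columns 128 and 109). The peak 21473 bp downstream of the start site of Snai1, which encodes a zinc finger repressor, ranked 437 (columns 372 and 650). A peak at -6306 bp from the start site of Atoh8, which encodes a bHLH factor, ranked 729 and was placed at 368 in 1 column and 2407 in the other. Mid1 and Atoh8 were thus far stronger in 1 replicate column. The others were the promoter of Lrtm1 (rank 600) and an intronic peak 118800 bp from the start site of Apol6 (567). The last was a peak at -27015 bp from the ubiquitin ligase gene Siah1a (657), where negative distances are upstream. Vehicle SMAD4 peaks overlapped 5 of these 7, and the peaks at Apol6 and Atoh8 overlapped none. Of all unmatched pSMAD1/5/9 peaks in the strongest quartile, 64.2% overlapped a vehicle SMAD4 peak.

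Strong SMAD4 peaks without pSMAD1/5/9 were more frequent, 98 of the strongest 1286, and many lay in tandem CAGAC repeats, as the windows at Plk5, Plk2 and Adamts5 show. The SMAD4 peak nearest to Ubash3b ranked 63 (columns 52 and 123) and held 5 CAGAC copies in 200 bp. That in an exon nearest to Plk5, a polo-like kinase gene, ranked 76 (columns 132 and 42) and held 27 copies. A peak 251139 bp from the start site of Plk2, of the same kinase family, ranked 144 (columns 63 and 629) and held 29. One at -98900 bp from the start site of Adamts5, an aggrecanase gene, ranked 183 (columns 171 and 222) and held 30. Gpr6 (rank 96, 7 copies), Mpp7 (100, 14 copies), Mtpap (78, 4 copies) and Rapgef2 (202, 1 copy) complete the 8 strongest. Their summits lay 31471, 18082, 129075 and 351533 bp from the respective start sites. All 8 overlapped a SMAD4 peak of vehicle cells and none a pSMAD1/5/9 peak of vehicle cells. Beside this, 75.1% of unmatched SMAD4 peaks in the strongest quartile overlapped a vehicle SMAD4 peak. A vehicle pSMAD1/5/9 peak was overlapped by 1.37% of all unmatched SMAD4 peaks, so none among 8 is close to that share.

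The limit of 5 copies was chosen after these sequences were seen, so the following shares are given with no test. Of the 98 unmatched SMAD4 peaks of the strongest decile, 33 (33.7%, 25.1 to 43.5) held 5 or more copies, and 30 of these overlapped a vehicle SMAD4 peak. Of the 1188 matched ones 23 did (1.94%). Over all SMAD4 peaks the shares were 2.22% of unmatched and 0.693% of matched peaks, and over pSMAD1/5/9 peaks 0.102% and 0.447%. The submitters kept only properly paired reads of high mapping quality outside blacklisted regions, and the part that mapping in repeats has in these peaks was not tested.

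A gene was called bound by a factor when a peak lay in its body or within 20 kb of it. Of 21757 protein-coding genes, 29.1% were bound by pSMAD1/5/9, 39.3% by SMAD4 and 25.4% by both, while 3.68% had pSMAD1/5/9 only and 13.9% SMAD4 only. Of the 5522 genes bound by both, 4930 had a matched pSMAD1/5/9 peak with its partner, and 592 had separate peaks only. With genes taken only by a peak 1.5 kb upstream to 0.5 kb downstream of a start site, 1845 were bound by both.

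The 4 Id genes encode the inhibitors named above, and all 4 were bound by both factors, 3 with matched peaks. Among all protein-coding genes 25.4% were bound by both, and 22.7% had a matched pSMAD1/5/9 peak. Id1 had 5 pSMAD1/5/9 peaks, each matched, and 9 SMAD4 peaks. Its strongest pSMAD1/5/9 peak ranked 204 (columns 278 and 143) and lay at -6516 bp from the start site, while its strongest SMAD4 peak ranked 35 (columns 24 and 103) and covered the promoter. At Id3, 5 of 6 pSMAD1/5/9 peaks were matched, and the strongest peaks ranked 152 (columns 116 and 316) and 291 (columns 413 and 199) with summits 1 bp apart. Id2 had ranks 763 (columns 575 and 1366) and 300 (columns 420 and 209), with summits 70 bp apart. Id4 was weak in both lists, with ranks 6843 and 5150 and summits 14871 bp apart, and neither peak had a partner.

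**Figure D5:**
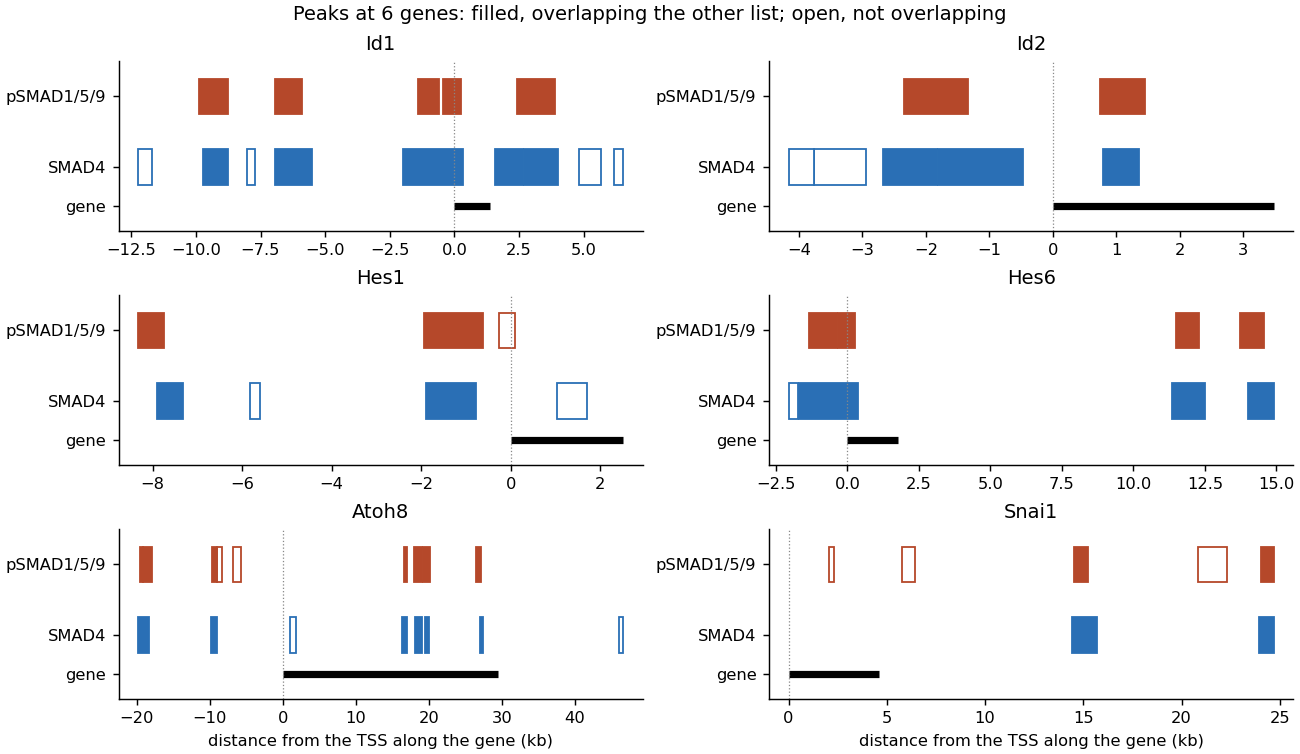
Peaks of both lists at Id1, Id2, Hes1, Hes6, Atoh8 and Snai1, to scale by distance from the start site along the gene in kb, filled where the peak overlaps the other list and open where it does not, with the gene as a black bar. At Id1 all 5 pSMAD1/5/9 peaks are filled, and at Snai1 2 of 5 are.

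Of 18 genes of BMP feedback and extracellular antagonism, 14 were bound by both factors, beside 25.4% of all genes. Matched peaks were found at 13 of them, beside 22.7% of all genes. Smad6 had its strongest peaks at the promoter, ranking 90 for pSMAD1/5/9 (columns 37 and 356) and 10 for SMAD4 (columns 10 and 20), 28 bp apart. Atoh8, a BMP target gene, had 9 pSMAD1/5/9 peaks, of which 7 were matched, the strongest in an intron with ranks 24 (columns 76 and 15) and 208 (columns 193 and 228). Nog, which encodes the secreted BMP antagonist noggin, and Smurf2, which encodes a ubiquitin ligase that acts on SMADs, had SMAD4 peaks only, with best ranks of 4402 (columns 3305 and 8981) and 2544 (columns 3202 and 1891). The counterpart Smad7, given above, had 5 pSMAD1/5/9 peaks, all matched. Of 14 genes for BMP receptors and SMADs, 6 were bound by both, beside 25.4% of all genes. The 5 bound by SMAD4 only, beside 13.9% of all genes, were Acvr2b, Bmpr1a, Bmpr1b, Rgma and Rgmb.

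Of 26 Notch pathway genes, 15 were bound by both factors, beside 25.4% of all genes. Matched peaks were found at 14 of them, beside 22.7% of all genes. Hes6, a bHLH gene of the Hes family, had 4 pSMAD1/5/9 peaks, all matched, the strongest with ranks 171 (columns 207 and 148) and 27 (columns 25 and 35) and summits 7 bp apart. Heyl, a Notch-responsive repressor gene, also had 4 of 4 matched, with ranks 167 (columns 272 and 89) and 228 (columns 314 and 174) and the pSMAD1/5/9 summit at -5170 bp. The strongest pair at Notch4 lay 39689 bp from its start site, at another start site, with ranks 199 and 545. At Hes1, the strongest pair had ranks 361 (columns 390 and 365) and 451 (columns 464 and 480), and a further pSMAD1/5/9 peak at -102 bp from the start site, ranked 2762 (columns 1848 and 5105), had no SMAD4 partner.

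SMAD4 alone was called at 7 of the 26 Notch pathway genes, beside 13.9% of all genes. They were the ligand genes Dll1, Dll4 and Jag1, the protease gene Adam17, the coactivator genes Maml2 and Maml3, and Nrarp. Their best SMAD4 ranks ran from 2939 (Maml3) to 8095 (Jag1) of 12860. pSMAD1/5/9 alone was called at Adam10, the other receptor-cleaving protease gene, with a promoter peak ranked 2905 (columns 3464 and 2329). Among all genes 3.68% had pSMAD1/5/9 only. Hes5, Hey2 and Rfng were bound by neither.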

How the data were processed

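Per the study's methods, paired reads were subsampled by the authors to equal depth per antibody, aligned to GRCm39 with Bowtie2 2.5.4 and filtered with SAMtools 1.21 and bedtools 2.31.1. Peaks were called with JAMM in each of the 2 replicates and combined by IDR at a threshold of 0.05. The deposited signal of a consensus peak, a score with no fixed unit, is the sum of the authors' values for both replicates, and the deposited IDR is given as a −log10 value. The number of reads behind a peak is not in the lists, so the depth of a single value is unknown. No per-sample column was left unused. Not used here were vehicle H3K27ac and 2 libraries made with no primary antibody.

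Peaks were matched by an overlap of 1 bp, and pairs were mutual best overlaps. A start-site peak touched 2000 bp around a start site. Genes and start sites came from GENCODE (21757 canonical protein-coding transcripts, 166872 basic transcripts), in place of the annotation in the study's methods. Classes were compared by Fisher's exact test with Benjamini-Hochberg adjustment over 34 comparisons, at 0.05. With 2 samples against 2, an exact permutation test over samples cannot go below 0.333, so none is given. Per the labels, the replicates are biological.

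Named genes were those nearest to the 8 matched pairs with the lowest summed rank percentile, to the 8 strongest unmatched peaks of each list, and to the 4 pairs per direction with the largest rank difference. From the Id, Notch and BMP feedback lists, at most 4 genes by lowest summed rank and those bound by 1 factor were named. Some genes that the rule names are not reported here. The peak classes and gene lists were chosen with earlier results of these data known. Alternatives were stricter IDR, other overlap and gene rules, single replicate columns, signal quartiles, GC and window changes. The code was tested on simulated data. Python 3.11.15, numpy 2.4.6, pandas 2.3.3, scipy 1.17.1, pysam 0.24.0 and matplotlib 3.10.9 were used.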

Additional observations from a re-analysis of the deposited data

How the results depend on the processing

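The limits lie in the lists: 1 consensus list per antibody, no read counts, and peaks that passed IDR in both replicates. No paired analysis was possible because the replicate columns of the lists carry no replicate number. The alternatives on autosomes for rank, width and motifs, at replicate midpoints, and without windows of 5 or more CAGAC copies were chosen after seeing the data.

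At an IDR of at most 0.01, 78.0% of pSMAD1/5/9 and 45.8% of SMAD4 peaks were matched. With an overlap of at least 50% of both peaks these were 57.1% and 32.6%, with summits within 200 bp 60.05% and 34.3%, with SMAD4 cut to equal length 62.0% and 61.04%, and on autosomes 75.3% for pSMAD1/5/9. With the peak intervals of 1 replicate column of each list, the matched share was 72.5% to 72.9% and 42.0% to 42.2%. With ranks from 1 column it was, in the strongest deciles, 98.2% to 98.6% and 91.2% to 91.3%, and in the weakest 38.1% to 42.9% and 10.3% to 12.8%. Under 50% overlap the strongest deciles stood at 87.9% and 78.5% and the weakest at 22.2% and 3.58%.

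The difference of median rank percentile was 32.3 to 33.5 points from 1 column, 33.3 at IDR 0.01 and 33.2 on autosomes for pSMAD1/5/9, and 37.0 to 38.8 from 1 column and 37.9 at IDR 0.01 for SMAD4. The width difference was 156 to 180.0 bp from 1 column, 127.5 at IDR 0.01 and 120.0 on autosomes for pSMAD1/5/9, and 217 to 231 and 201.5 for SMAD4. Spearman's rho was 0.662 for pairs with summits within 200 bp and 0.560 to 0.595 from 1 column of each, and the summit distance was 52 bp at replicate midpoints and 58 to 67 bp from 1 column of each. Genes bound by both numbered 1845 by the start-site rule, 3628 by nearest start site and 3231 at IDR 0.01, SMAD4-only genes 1756 by the start-site rule, and pSMAD1/5/9-only genes 532 at IDR 0.01.

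Class differences changed direction or call as follows, in percentage points of matched minus unmatched, and the cause was not tested. For pSMAD1/5/9 at start sites, the difference was -0.55 on autosomes (adjusted exact p = 0.724), -8.66, -0.22 and -1.41 in the signal quartiles from the strongest to the third (adjusted exact p = 0.232, 0.975 and 0.721), and 6.22 in the weakest (adjusted exact p = 0.0108). For SMAD4 at start sites it was 4.16 in the strongest quartile (adjusted exact p = 0.118). For intergenic pSMAD1/5/9 peaks it was 0.55 on autosomes, 8.17 in the strongest and 0.42 in the third quartile, and in the weakest quartile it was 0.46 for exons and -2.17 for introns. The SMAD4 intron call was lost in all 4 quartiles and the intergenic call in 3 of the 4. For SMAD4 exons it was -0.12 with the summit deciding and -0.49 in the strongest quartile.

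Among motifs in 100 bp windows, the bipartite element in pSMAD1/5/9 gave 0.015, CAGAC in SMAD4 -0.41 and RBPJ in SMAD4 -0.036. Without start-site peaks, CACCTG and RBPJ in pSMAD1/5/9 gave 0.075 and 0.37. In the middle GC class, GTCTAGAC in pSMAD1/5/9 gave 0.63 (adjusted exact p = 0.245) and CAGCTG 4.37 (adjusted exact p = 0.105), while GGAGCC gave -0.99, GGCGCC -1.15, the bipartite element 0.15 and RBPJ 0.23, and in SMAD4 GGAGCC gave -0.24 and CAGAC -0.088. RBPJ in SMAD4 gave -0.12 without CAGAC-rich windows and -0.030 on autosomes. In SMAD4 the CACCTG call was lost in 100 bp windows, without start-site peaks and on autosomes, that of GGCGCC in the middle GC class (adjusted exact p = 0.355), and calls were gained for the bipartite element in 100 bp windows (adjusted exact p = 0.0395) and for TGACTCA without start-site peaks (adjusted exact p = 0.0113) and in the middle GC class (adjusted exact p = 0.0372).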

Other observations

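Genes of the myogenic programme and of related transcription factors were described by the same rule. Their examples were chosen after the values were seen. Of 20 myogenic genes, 14 were bound by both factors, beside 25.4% of all genes. Matched peaks were found at all 14, beside 22.7% of all genes. SMAD4 alone was called at 5 of the 20, beside 13.9% of all genes. They were Eya2, Mef2c, Pax3 and the neighbours Myf5 and Myf6. The strongest SMAD4 peak of Myf5 and of Myf6 was the same, ranked 6887, so these neighbours do not count separately. Myod1, the myogenic determination gene, had 4 pSMAD1/5/9 peaks, all matched, the strongest at the promoter with ranks 1221 (columns 2065 and 636) and 2118 (columns 2512 and 1662). Pax7, the factor that marks MuSCs, had 15 pSMAD1/5/9 peaks, all matched, and 28 SMAD4 peaks, at a locus that the transgene also carries.

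Of 22 genes of the TGF-β pathway and its classical targets, 16 were bound by both, beside 25.4% of all genes, and 5 by SMAD4 only (Col1a2, Col3a1, Tgfbi, Tgfbr1 and Tgfbr3), beside 13.9%. Of 9 AP-1 genes, 7 were bound by both, beside 25.4% of all genes. Batf3 was bound by pSMAD1/5/9 only, beside 3.68% of all genes, and Fosb by SMAD4 only, beside 13.9%. The Batf3 peak was weak, at rank 6606 (columns 6463 and 6084) of 7339, and its summit lay 27839 bp from the start site. The best SMAD4 rank at Fosb was 2622 (columns 3813 and 1547). Of 8 Dlx and Msx genes, 3 were bound by both and 4 by neither, beside 25.4% bound by both and 12400 of 21757 bound by neither among all genes. The neighbours Dlx1 and Dlx2 shared their only pSMAD1/5/9 peak, ranked 42, so they do not count separately. Snai1 had 5 pSMAD1/5/9 and 2 SMAD4 peaks, 2 of the former matched, and Twist1 and Twist2 were bound by neither.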
